A study of Mus musculus with 2 samples.

Results

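The 10 genes described here encode heat shock proteins: Hspa1a, Hspa1b and Hspa8 of the HSP70 family, Hsp90aa1 and Hsp90ab1 of the HSP90 family, the J-domain co-chaperones Dnajb1 and Dnaja1, the HSP110 protein Hsph1, and Hspd1 and Hspe1. They were taken by gene symbol from the 32589 features of the deposited tables, and all 10 were found in both libraries. Most of them are known as cytosolic chaperones, whereas Hspd1 and Hspe1 encode the chaperonin and co-chaperonin of the mitochondrial matrix, so a purely cytosolic label does not cover the whole set. Levels and differences below are given for each gene by library and by cell class.

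Microglia were sorted from the prefrontal cortex of C57BL/6 mice on low CD45 and positive CD11b staining, after enzymatic digestion at body temperature, and profiled as single cells. There were 2 groups, mice given vehicle and mice given corticosterone, the latter by oral gavage as a model of depression with raised glucocorticoid, with 1 library per group. Dose, duration, sex, age and the number of animals behind a library were not given in the sources used here. The deposited file names call the libraries wild type and depression, and the group labels vehicle and corticosterone were used throughout. With 1 library per group, the treatment cannot be told apart from anything else that differed between the libraries, no test was possible, and every interval below is a 95% interval for counting error only.

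Heat shock proteins are molecular chaperones, which bind unfolded or partly folded proteins and help them to reach or keep their native state. HSP70 proteins hold client proteins in cycles of ATP hydrolysis that J-domain proteins start and nucleotide exchange factors such as HSP110 end, and clients such as steroid receptors are then passed to HSP90, which keeps the unliganded glucocorticoid receptor able to bind hormone. Hspa8 and Hsp90ab1 are the constitutive forms, while Hspa1a, Hspa1b, Dnajb1, Hsph1 and Hsp90aa1 are classical targets of heat shock factor 1 (HSF1), the transcription factor that answers heat and other proteotoxic stress. In microglia, as in other brain cells, these inducible genes are also known to respond to warm tissue dissociation.

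HSF1 recognises inverted repeats of the unit GAA. The promoters of the inducible pair Hspa1a and Hspa1b are shown because these genes are near copies of each other. Both are single-exon genes on the minus strand of chromosome 17, Hspa1a at chr17:34969190-34972156 and Hspa1b at chr17:34956436-34959238 (GRCm38), with 9951 bases between them. The 250 bases before each start are from RefSeq (GRCm38.p6, minus strand, chr17:34972157-34972406 and chr17:34959239-34959488). They are given 5′ to 3′ with the exact pair of inverted units in capitals, 104 bases before the start. Units with a mismatch were not sought or marked.
Hspa1a: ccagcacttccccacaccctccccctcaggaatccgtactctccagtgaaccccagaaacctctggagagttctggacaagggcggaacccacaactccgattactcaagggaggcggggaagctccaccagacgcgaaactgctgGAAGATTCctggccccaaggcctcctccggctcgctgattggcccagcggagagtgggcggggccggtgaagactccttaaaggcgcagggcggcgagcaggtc
Hspa1b: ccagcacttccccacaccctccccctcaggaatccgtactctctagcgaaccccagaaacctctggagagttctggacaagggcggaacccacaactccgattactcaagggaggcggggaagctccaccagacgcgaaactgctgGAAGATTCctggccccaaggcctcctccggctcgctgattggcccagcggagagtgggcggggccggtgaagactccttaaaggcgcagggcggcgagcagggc
The sequences are identical at 247 of 250 positions, and the coding sequences at 1915 of 1923 aligned bases (99.6%). After the stop codon the similarity ended: 380 of 622 aligned bases (61.1%) were identical. How reads that match both genes were counted was not given in the sources used here, so the separate values of Hspa1a and Hspa1b are uncertain.

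Hspd1 and Hspe1 lie on opposite strands of chromosome 1 with overlapping 5′ ends (GRCm38, chr1:55077835-55088243 and chr1:55088132-55091307). A stretch with 4 consecutive inverted units, in capitals here, is shown because both genes have it in a promoter window, on the plus strand at chr1:55088054-55088081 (GRCm38.p6). It lies 89 bases before the Hspe1 start and 144 before 1 of 2 annotated Hspd1 starts, and it overlaps an annotated Hspd1 exon; the window of the other Hspd1 start holds no match.
Hspe1: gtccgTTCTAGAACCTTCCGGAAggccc
Promoter windows of 300 bases, from 250 before to 50 after a start, were found in RefSeq for 7 of the 10 genes, in 12 windows. A pair of units (GAANNTTC or TTCNNGAA, which covers both strands) occurred in 7 of these 12 windows, which belong to 6 of the 7 genes, and in 15.1% of all 32851 windows. A run of 3 (GAANNTTCNNGAA or TTCNNGAANNTTC, each of which also holds 2 overlapping pairs) occurred in 4 of the 12 windows, of Hspd1, Hspe1 and Hsph1, and in 0.603% of all windows. Windows of 1 gene can overlap, Hspd1 and Hspe1 count the same stretch, and Hspa1a and Hspa1b are near copies, so these windows are not independent. A run of 4 stood in 8 of the 32851 windows (0.0243%), among them those of Hspd1 and Hspe1. For Hsph1 the run of 3 lay after the annotated start, and no pair was found in the windows of Dnajb1. Only exact units were sought, so elements with a mismatched unit were not counted in any window. These matches describe letters and show no binding.

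After filtering, 10500 vehicle and 17883 corticosterone cells remained, with median totals of 3220.5 and 3961 UMIs (unique molecular identifiers, each marking 1 captured transcript) and median mitochondrial shares of 2.67% and 4.20%. Clusters were formed without the chaperone genes and named from marker genes: 8312 vehicle and 15446 corticosterone cells were microglia-like, 1159 and 781 border-associated macrophage-like, and 427 and 396 neutrophil-like. Within the microglia-like class the libraries fell into different clusters, cluster 1 holding 7358 of the vehicle cells and clusters 0 and 2 together most of the corticosterone cells (8248 and 6365). A shallow cluster (533 and 1145 cells) stayed unnamed. The microglia-like class carried all 10 microglia markers (summed level 35296 and 34336 CPM, UMIs of the gene per 1e6 UMIs of the cells), against 88.4 and 43.0 CPM for the 9 macrophage markers and 939 and 689 CPM for the 9 neutrophil markers. The libraries shared 101 cell barcodes among the cells kept.

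In microglia-like cells the 10 genes together took 3131 CPM with vehicle and 4163 CPM with corticosterone. The constitutive Hspa8 and Hsp90ab1 and the mitochondrial pair Hspd1 and Hspe1 were higher in the corticosterone library. Of the 5 genes named above as classical HSF1 targets, Hspa1a, Hspa1b and Hsph1 were higher and Dnajb1 and Hsp90aa1 were lower. Neither the set nor these 5 genes thus differed in 1 direction. Levels of different genes are not compared below.

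**Figure D1:**
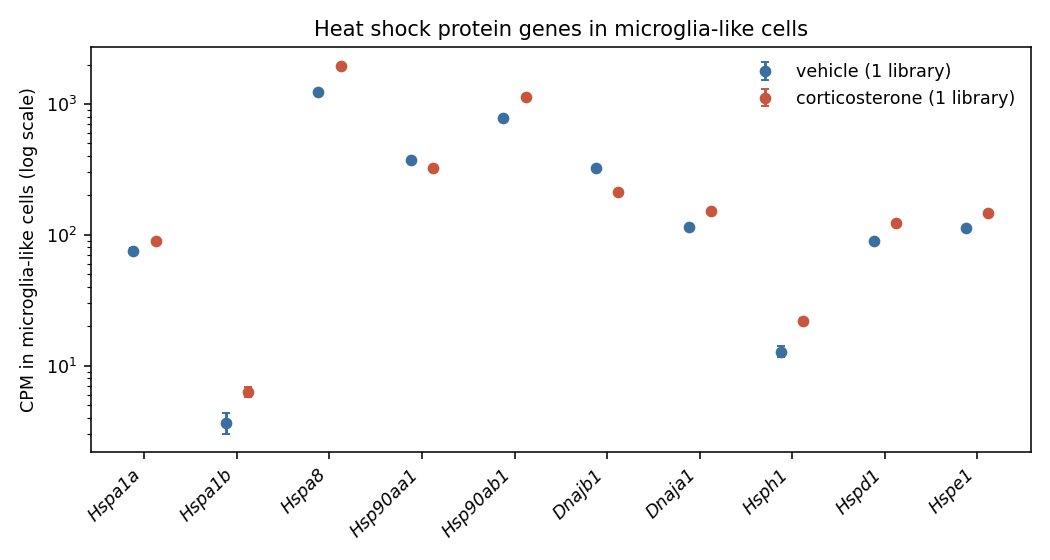
Level of each of the 10 heat shock protein genes in microglia-like cells (y axis, CPM, log scale) in the vehicle library (blue) and the corticosterone library (red). Each point is 1 library's summed value and bars are 95% exact Poisson intervals, often smaller than the point. The corticosterone point is higher for 8 genes and lower for Hsp90aa1 and Dnajb1.

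Hspa8, the constitutive HSP70 that also uncoats clathrin vesicles, was at 1236 CPM (1224 to 1248) with vehicle and 1955 CPM (1944 to 1965) with corticosterone. Its log2 ratio, corticosterone over vehicle, was 0.66 (0.65 to 0.68), or 1.58-fold. After each cell was thinned to 1000 UMIs, 65.5% of vehicle and 80.9% of corticosterone cells held an Hspa8 UMI (88.3% and 98.2% without thinning). Thinning left out 674 vehicle and 97 corticosterone cells that were shallower.

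Hspa1a, the major stress-inducible HSP70, was at 75.7 CPM (72.7 to 78.7) with vehicle and 89.3 CPM (87.2 to 91.5) with corticosterone, a log2 ratio of 0.24 (0.17 to 0.31). At 1000 UMIs per cell its UMIs were seen in 6.15% and 6.46% of cells (16.8% and 17.95% without thinning), shares whose intervals overlap (5.62% to 6.72% and 6.08% to 6.86%). The near copy Hspa1b was at 3.63 CPM (3.01 to 4.33) and 6.31 CPM (5.74 to 6.91), a log2 ratio of 0.80 (0.51 to 1.10) that rests on 122 and 458 UMIs. Most cells held no UMI of either gene.

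Hsp90ab1, the constitutive cytosolic HSP90, was at 788 CPM (779 to 798) with vehicle and 1130 CPM (1122 to 1137) with corticosterone, a log2 ratio of 0.52 (0.50 to 0.54). Its inducible paralog Hsp90aa1 was at 372 CPM (366 to 379) and 327 CPM (322 to 331), a log2 ratio of -0.19 (-0.22 to -0.16). The paralogs thus lay on opposite sides of equality. At 1000 UMIs per cell, Hsp90ab1 was seen in 51.0% and 64.7% of cells and Hsp90aa1 in 28.4% and 26.3%.

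Dnajb1, the J-domain protein that works with HSP70 to dissolve protein aggregates and to restrain HSF1, showed the reverse of Hspa8. It was at 325 CPM (319 to 331) with vehicle and 212 CPM (209 to 215) with corticosterone, a log2 ratio of -0.62 (-0.65 to -0.58). The share of thinned cells with a Dnajb1 UMI was 22.8% and 16.4%. Dnaja1, a J-domain partner of HSP70 in folding and in mitochondrial protein import, was at 115 CPM (112 to 119) and 151 CPM (148 to 154), a log2 ratio of 0.39 (0.34 to 0.44).

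Hsph1, the HSP110 nucleotide exchange factor, was at 12.8 CPM (11.6 to 14.1) with vehicle and 21.9 CPM (20.8 to 23.0) with corticosterone, a log2 ratio of 0.77 (0.62 to 0.93). Hspd1, which forms the mitochondrial folding chamber, was at 89.8 CPM (86.6 to 93.01) and 124 CPM (122 to 127), a log2 ratio of 0.47 (0.41 to 0.53). Hspe1, its lid, was at 113 CPM (109 to 116) and 148 CPM (145 to 151), a log2 ratio of 0.39 (0.34 to 0.44). The ratios of the chaperonin pair had overlapping intervals.

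Over the 6609 genes with a mean of at least 20 CPM, which 8 of the 10 genes passed (Hspa1b and Hsph1 did not), 5.37% were at least 1.5-fold higher in the corticosterone library and 4.74% at least 1.5-fold lower. Of the 8, 1 was higher by that much (Hspa8) and 1 lower (Dnajb1), and the counting interval of Dnajb1 reached across the 1.5-fold line. At a lower limit, a ratio of 5 to 4, 28.6% of genes lay past it on either side and 6 of the 8 did. On the high side were 14.7% of genes and 5 of the 8 (Hspa8, Hsp90ab1, Dnaja1, Hspd1 and Hspe1), and on the low side 13.9% and 1 of the 8 (Dnajb1). Above a ratio of 1 lay 49.9% of genes and 6 of the 8. The median log2 ratio of the 8 was 0.39, beside a median near 0 over all genes tested.

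**Figure D2:**
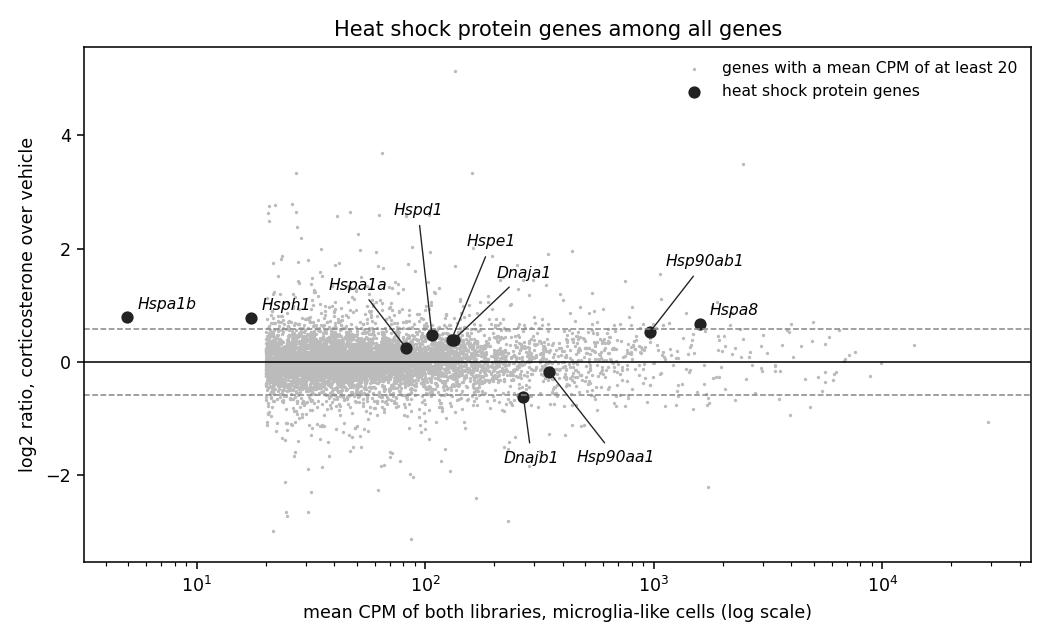
Log2 ratio of corticosterone over vehicle (y axis) against the mean CPM of both libraries (x axis, log scale) in microglia-like cells. Grey points are the 6609 genes with a mean of at least 20 CPM, black points the 10 heat shock protein genes, and dashed lines mark 1.5-fold. Hspa8 lies above the upper line at a log2 ratio of 0.66 and Dnajb1 below the lower line at -0.62; Hspa1b and Hsph1 lie above it but left of the grey points, under the minimum level.

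In rank among the 6609 genes, the ratio of Hspa8 was above that of 95.9% of them, Hsp90ab1 above 93.5% and Hspd1 above 92.0%. Dnajb1 was above 4.19% and Hsp90aa1 above 25.3%. Scaling by TMM or by median-of-ratios factors moved the median of all genes by 0.10 and 0.11 on the log2 scale. Under both scalings the count at least 1.5-fold higher was 2 in place of 1, and the count at least 1.5-fold lower was 0 in place of 1. The shares of all genes above belong to the main scaling, so these counts have no share beside them.

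The direction of most genes was the same in subsets of the class. In each of clusters 0, 1 and 2, Hspa1a, Hspa8, Hsp90ab1, Hsph1 and Hspd1 were higher and Dnajb1 and Hsp90aa1 lower in the corticosterone library. The log2 ratio of Hspa8 ran from 0.53 to 0.81 over these clusters and that of Dnajb1 from -0.76 to -0.51. Dnaja1 was level in cluster 0 at -0.01 (-0.25 to 0.25), and Hspe1 in cluster 1 at -0.05 (-0.27 to 0.17). Hspa1b, with few UMIs, was higher in 2 of these clusters and lower in 1, from -0.05 to 1.13, and Hsph1 ran from 0.12 to 0.81. Each cluster was mostly of 1 library, with 268 vehicle cells in cluster 0, 443 corticosterone cells in cluster 1 and 668 vehicle cells in cluster 2.

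Depth and mitochondrial share differed between the libraries, with medians in microglia-like cells of 3160 and 4004 UMIs and of 2.47% and 4.11%. Within 4 bins of UMIs per cell, Hspa8 kept ratios of 0.47 to 0.67 and Dnajb1 of -1.13 to -0.45, both on the log2 scale. Hspa1a was lower, not higher, in cells of 500 to 2000 UMIs, at 79.5 CPM with vehicle and 57.0 CPM with corticosterone, a log2 ratio of -0.48 (-0.92 to -0.06). Within 4 bins of mitochondrial share, the log2 ratio of Hspa8 lay between 0.63 and 0.78, that of Hsp90ab1 between 0.48 and 0.70, and that of Dnajb1 between -0.67 and -0.36. In the 199 and 1630 cells above 6%, 4 ratios had intervals that included equality: Hspa1a at 0.34 (-0.16 to 0.87), Hspe1 at 0.06 (-0.25 to 0.38), Hsp90aa1 at -0.05 (-0.25 to 0.16) and Hspa1b at -0.21 (-2.25 to 2.93). Genes of the immediate early response, which tissue handling can also induce, took 5.61% of UMIs in vehicle and 4.92% in corticosterone microglia-like cells. Their part in the lower Dnajb1 and Hsp90aa1 was not tested.

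Macrophage-like cells, named for markers of border-associated macrophages such as Mrc1 and Lyve1, had Hspa8 and Hsp90ab1 higher and Dnajb1 and Hsp90aa1 lower in the corticosterone library, as microglia-like cells did. Hspa8 was at 1312 CPM (1291 to 1332) with vehicle and 1857 CPM (1825 to 1890) with corticosterone, a log2 ratio of 0.50 (0.47 to 0.54). Hsp90ab1 was at 803 and 1119 CPM (log2 ratio 0.48, 0.43 to 0.52) and Dnajb1 at 313 and 188 CPM (log2 ratio -0.74, -0.83 to -0.64). Hspa1a was at 80.6 and 81.2 CPM, a log2 ratio of 0.01 (-0.14 to 0.16). The intervals of Hspa8 and Hspa1a lay below those of microglia-like cells (0.65 to 0.68 and 0.17 to 0.31). The libraries filled the class with different cells. At a finer resolution of 1.0, a macrophage-like cluster led by the MHC class II genes H2-Aa and H2-Eb1 held 749 vehicle and 16 corticosterone cells. Another, led by Lyve1 and Fcna, held 396 and 665, and a shallower one, led by Vav3 and Fcna, held 62 and 127. The part of these clusters in the ratios was not tested.

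Hsp90aa1 was at 307 and 273 CPM in these cells, a log2 ratio of -0.17 (-0.25 to -0.08). Of the 8 genes tested, none was at least 1.5-fold higher, where 6.45% of 6572 genes were, and Dnajb1 was at least 1.5-fold lower, where 5.22% were. Above a ratio of 1 were 6 of the 8, where 51.7% of genes were. Microglia marker RNA stood at 0.830 and 0.639 of its microglia-like level in the macrophage-like cells, and at 0.101 and 0.110 in erythroid-like barcodes. Expression by these cells themselves and RNA carried over from microglia cannot be told apart here.

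Neutrophil-like cells held less of most of these transcripts and the constitutive genes differed less. Hspa8 was at 920 CPM (881 to 959) with vehicle and 965 CPM (925 to 1005) with corticosterone, a log2 ratio of 0.07 (-0.02 to 0.15). Dnajb1 was at 228 CPM (209 to 248) and 119 CPM (105 to 134), a log2 ratio of -0.94 (-1.15 to -0.73), and Hsp90aa1 at 238 and 167 CPM, a log2 ratio of -0.51 (-0.69 to -0.32). Dnaja1 was higher, at 121 and 160 CPM with a log2 ratio of 0.40 (0.18 to 0.63). In this class 8.89% of 5939 genes were at least 1.5-fold higher and none of the 8 was, while 15.8% were at least 1.5-fold lower and 1 of the 8 was, Dnajb1. Above a ratio of 1 lay 39.9% of genes and 4 of the 8.

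Neutrophil-like cells formed 2 clusters with different levels. Cluster 5 (205 and 275 cells), led by Clec4d, Cxcr2 and Slfn4, had Hspa8 at 1140 and 1289 CPM and Hsp90ab1 at 593 and 742 CPM. Cluster 7 (222 and 121 cells), led by the granule genes Camp, Ngp and Ltf, had Hspa8 at 603 and 575 CPM and Hsp90ab1 at 433 and 364 CPM. Microglia marker RNA stood at 0.714 and 0.534 of the microglia-like level in cluster 5 and at 0.335 and 0.141 in cluster 7. In both libraries the cluster with less of it also had less Hspa8. Hspa8 RNA of the neutrophil-like cells themselves and RNA from microglia, carried over or in mixed barcodes, cannot be told apart here.

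**Figure D3:**
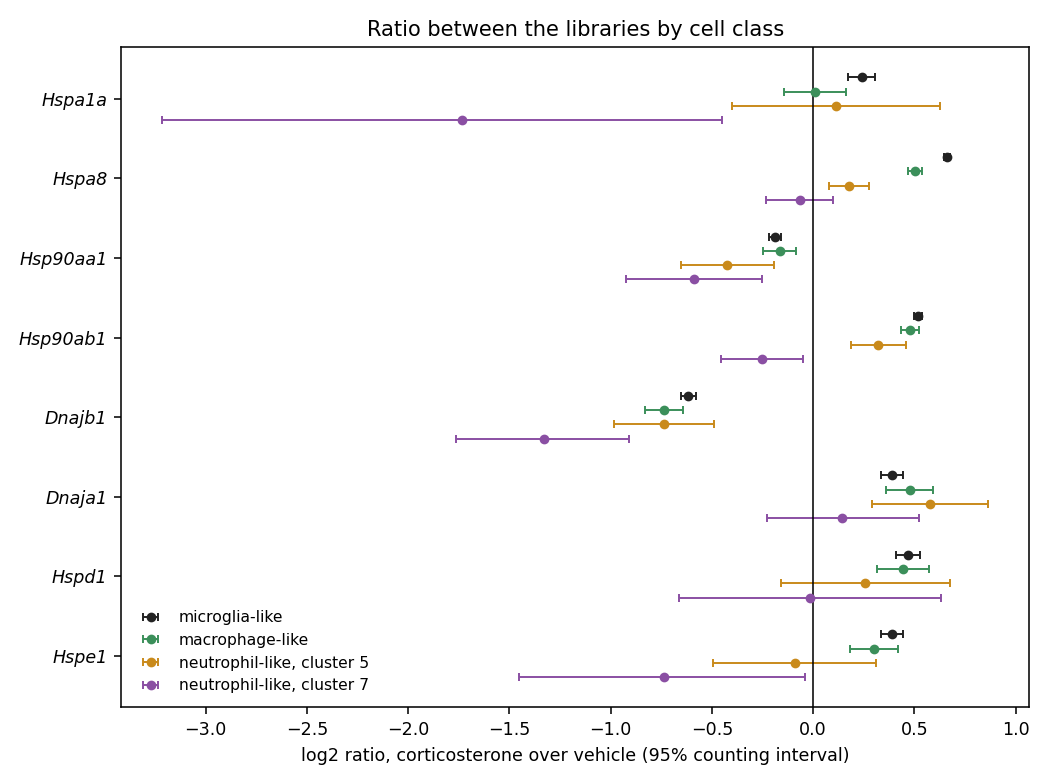
Log2 ratio of corticosterone over vehicle (x axis) for the 8 genes that passed the minimum level, in microglia-like (black), macrophage-like (green) and both neutrophil-like clusters (orange, cluster 5; purple, cluster 7). Points are ratios of summed UMIs between 1 library per group, and bars are 95% counting intervals. Dnajb1 and Hsp90aa1 lie left of 0 in all 4 sets of cells; Hspa8 and Hsp90ab1 lie right of 0 in all but cluster 7.

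Monocyte-like cells were few (48 and 108). Hspa8 was at 1142 CPM (989 to 1312) and 1875 CPM (1790 to 1963) in them, a log2 ratio of 0.72 (0.50 to 0.93), and the interval of the Dnajb1 ratio (-0.85 to 0.44) included equality. Erythroid-like barcodes, from cells that have shed most transcripts other than globin, served as the nearest background. They numbered 21 and 7, with median totals of 4161 and 1294 UMIs. In vehicle they held 14 Hspa8 UMIs (164 CPM, 89.7 to 275) against 1236 CPM in microglia-like cells, and no UMI of Hspa1a, which at 3 counts allows up to 35.1 CPM. Of the 16 vehicle erythroid-like cells deep enough to thin, 2 held an Hspa8 UMI (12.5%, 1.55% to 38.3%) and 3 a Dnajb1 UMI (18.8%, 4.05% to 45.6%). The Dnajb1 interval includes the 22.8% and 16.4% of microglia-like cells, so those shares cannot be set apart from this background at such numbers. The same holds for Hsp90aa1, with 2 of the 16 cells against 28.4% and 26.3%, and for Hspa1a, where 0 of 16 cells allows up to 18.8% against 6.15% and 6.46%. By level, Dnajb1 was at 46.9 CPM (12.8 to 120) in vehicle erythroid-like barcodes against 325 CPM, but at 110 CPM (13.3 to 396) on 2 UMIs in the corticosterone ones, an interval that includes the 212 CPM of microglia-like cells.

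Across single cells Hspa1a and Dnajb1 were uneven, but the inducible genes as a group did not stand apart from the constitutive ones. At 1000 UMIs per cell, the variance of Hspa1a over cells was 1.39 times its mean with vehicle and 1.82 times with corticosterone, above 98.6% and 99.3% of the genes tested. Dnajb1 reached 1.59 and 1.60 times, above 99.0% in both libraries. The constitutive Hspa8 reached 1.33 and 1.34 times, above 98.3% in both, and Hsp90ab1 1.20 and 1.18 times, above 97.0% and 96.8%. The inducible Hsph1 lay below these, at 1.16 and 1.10 times. The median gene lay at 1.07 and 1.05 times, and the chaperonin subunits Hspd1 (1.04 and 1.05) and Hspe1 (1.09 in both) were near it.

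Few cells held many Hspa1a UMIs. The gene was without a UMI in 83.2% of vehicle and 82.0% of corticosterone microglia-like cells. At least 10 Hspa1a UMIs were found in 10 vehicle cells (0.120%) and 63 corticosterone cells (0.408%), and the 63 held 13.6% of all Hspa1a UMIs of their class. The highest cell held 17 UMIs with vehicle and 38 with corticosterone.

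In those 63 cells several other heat shock genes were higher and others were not. Hspa1b was at 87.4 CPM (61.9 to 120), against 5.25 CPM (4.67 to 5.88) in corticosterone cells without Hspa1a, and 1 cell held 13 of its 38 UMIs. Without that cell it was at 58.1 CPM (37.6 to 85.7). Hspa8 was at 2508 CPM (2362 to 2662) against 1935 CPM (1924 to 1947), Hsph1 at 46.0 CPM (28.1 to 71.1) against 21.0 CPM (19.8 to 22.2), and Dnaja1 at 235 CPM (191 to 285) against 147 CPM (144 to 151). Hsp90ab1 was at 1443 CPM (1332 to 1560) against 1131 CPM (1122 to 1139), and Hsp90aa1 at 407 CPM (350 to 472) against 326 CPM (321 to 330). Without its richest cell Hsp90aa1 was at 377 CPM (321 to 439), an overlapping interval. Dnajb1, at 249 CPM (204 to 300) against 208 CPM (204 to 212), had overlapping intervals, as did Hspd1 at 133 CPM (101 to 173) against 124 CPM (121 to 127) and Hspe1 at 175 CPM (138 to 219) against 148 CPM (144 to 151). The HSF1-inducible Bag3 and Dnajb4 were no higher, at 25.3 CPM (12.6 to 45.3) against 36.2 CPM (34.6 to 37.8) and at 36.8 CPM (21.0 to 59.8) against 51.3 CPM (49.5 to 53.2). The HSF1-inducible Stip1 was higher, at 106 CPM (77.5 to 141) against 69.2 CPM (67.0 to 71.4). Without its richest cell it was at 97.3 CPM (70.1 to 132), an overlapping interval. Hspb1, also HSF1-inducible, was at 113 CPM (83.4 to 149) against 69.9 CPM (67.7 to 72.1), with 29 of its 49 UMIs in 1 cell. Without that cell it was at 46.5 CPM (28.4 to 71.8). Reads shared between the near-identical copies could place Hspa1b UMIs in Hspa1a-rich cells, and this was not tested.

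The 63 cells were deeper than cells without Hspa1a (median 5494 against 3907 UMIs) and had a like mitochondrial share (4.05% against 4.11%). The interferon-induced gene Isg15 was at 262 CPM (216 to 315) in them against 79.1 CPM (76.8 to 81.4), and 11 of the 63 belonged to the interferon-led cluster 6. Of the 12673 corticosterone cells without Hspa1a, 280 belonged to cluster 6. In corticosterone cells with 1, 2 to 4 and 5 to 9 Hspa1a UMIs, Isg15 was at 90.9, 95.2 and 81.8 CPM. The 10 vehicle cells were too few for a like statement: their Hspa8 was at 1367 CPM (1179 to 1576) against 1232 CPM (1218 to 1245), and they held 1 Hspa1b UMI.

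**Figure D4:**
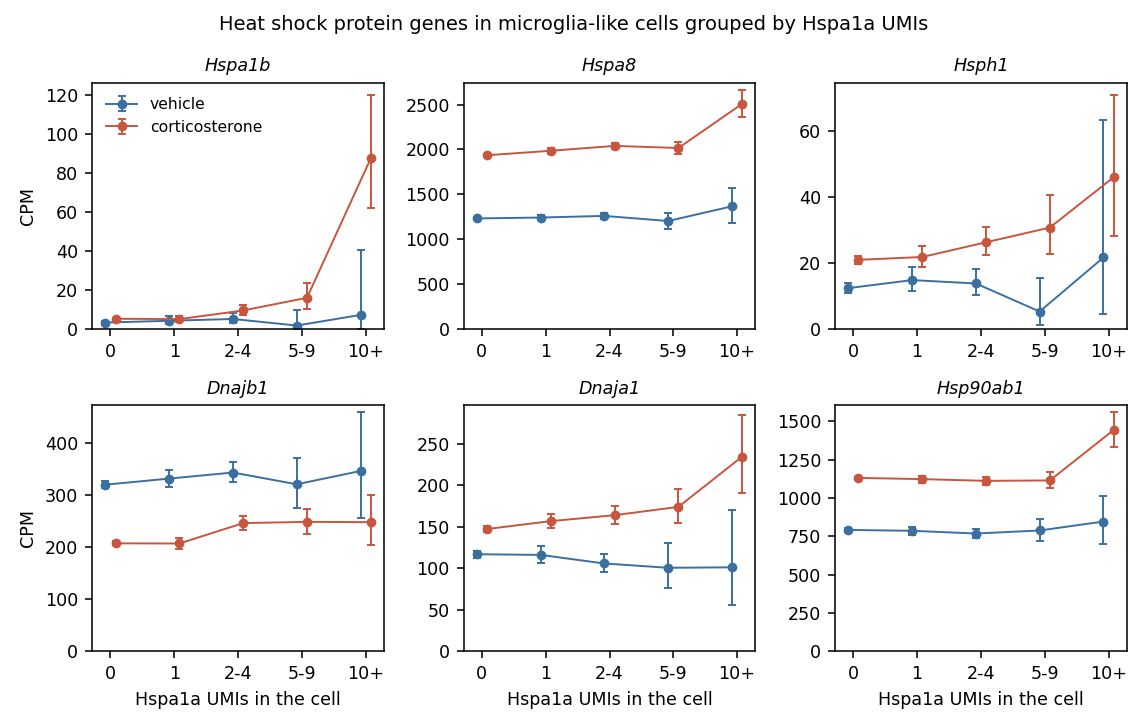
Level of 6 other heat shock protein genes (y axis, CPM) in microglia-like cells grouped by the Hspa1a UMIs of the cell (x axis: 0, 1, 2 to 4, 5 to 9, 10 or more), vehicle in blue and corticosterone in red. Points are summed values with 95% exact Poisson intervals, and lines only join the points. In the corticosterone library Hspa1b reaches 87.4 CPM and Hspa8 2508 CPM in the highest group; the vehicle lines show no such step and their highest group holds 10 cells.

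Cluster 6, the microglia-like cells led by Cxcl10 and Ifit genes, held 18 vehicle and 390 corticosterone cells. In the corticosterone library its Hspa1a was at 200.1 CPM (182 to 219), against 85.4 CPM (82.7 to 88.1) in cluster 0, and its Hspa1b at 41.3 CPM (33.4 to 50.5), against 4.30 CPM (3.71 to 4.95). Its Hspa8 was at 2546 CPM (2481 to 2612) against 1992 CPM (1979 to 2005), while Dnajb1 was at 209 CPM (191 to 229) against 222 CPM (218 to 227). Median depths were 5021.5 and 4449 UMIs. At 1000 UMIs per cell, 12 of 387 corticosterone cells of cluster 6 held an Hspa1b UMI, and the top 1% of cells held 55% of these UMIs. For Hspa1a, 39 of the 387 held a UMI, and the top 1% held 23.5%. The mean of Hspa1b per thinned corticosterone cell was 0.0517 UMIs in cluster 6, 0.00388 in cluster 0 and 0.0086 in cluster 2. Without cluster 6, the log2 ratio of Hspa1a between the libraries was 0.18 in place of 0.24.

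Microglia-like cells were also divided after each gene was scaled within its library, so that subclusters held cells of both. Of 11 subclusters, 9 held at least 40 cells of each library. Hspa8, Hsp90ab1, Hspd1 and Hspe1 were higher in the corticosterone library in all 9, and Hsp90aa1 was lower in all 9. The log2 ratio of Hspd1 went as low as 0.03 and that of Hsp90aa1 as high as -0.02. Dnaja1 was higher in 6 and lower in 3, from -0.22 to 0.68. Hspa1a and Hsph1 were each higher in 8 and lower in 1, and Hspa1b was higher in 6 and had no ratio in 3. Dnajb1 was lower in 8 of 9, the exception being subcluster 7 (70 and 62 cells), led by Lpl and Spp1, at 181 and 191 CPM.

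Subcluster 7 stood out for HSP90. Its Hsp90aa1 was at 611 CPM with vehicle and 533 CPM with corticosterone, and its Hsp90ab1 at 1292 and 1475 CPM, above the class values of 372 and 327 CPM and of 788 and 1130 CPM in both libraries. Its Hspd1 (175 and 200 CPM) and Hspe1 (167 and 217 CPM) were above the class values too. In the interferon-led subcluster 2 (140 and 686 cells), Hspa1a was at 75.2 CPM with vehicle and 162 CPM with corticosterone, and Hspa8 at 1416 and 2375 CPM. Some small subclusters were led by genes of other classes, such as Camp and Ngp in subcluster 3 and haemoglobin genes in subcluster 4.

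Correlations between the 10 genes over single cells were close to 0. At 1000 UMIs per cell, the 45 pairs among the 10 genes had a median Pearson correlation over cells of 0.005 with vehicle (7638 cells) and 0.008 with corticosterone (15349 cells). The highest was 0.06, for Hspa8 with Hsp90ab1 in the corticosterone library. The 6 genes most like the summed inducible genes (Hspa1a, Hspa1b, Dnajb1 and Hsph1) were Jun, Junb, Nfkbia, Zfp36, Egr1 and H3f3b, with correlations from 0.05 to 0.07 in both libraries. For the sum of Hspa8, Hsp90aa1 and Hsp90ab1 they were H3f3b, Nfkbia, Tnf, Ccl4, Actb and Ccl2, from 0.03 to 0.05. Correlations this weak in sparse counts, between genes of the same libraries and depth, are given as a description only.

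The partners of the 10 genes were read from 9 lists in microglia-like cells, over members with a mean of at least 5 CPM. Among all 9684 genes at that level, 5.96% were at least 1.5-fold higher and 6.65% at least 1.5-fold lower, with 47.9% above a ratio of 1 and a median log2 ratio of -0.02. HSP70 partners, which include other J-domain and BAG proteins, had a median of 0.02 over 28 genes, with 1 higher and 1 lower by 1.5-fold. They ran from Dnajb4, a close relative of Dnajb1 (118 and 52.2 CPM, log2 ratio -1.17, -1.24 to -1.11), to Dnajb14 (50.3 and 84.5 CPM, 0.75, 0.67 to 0.83).

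HSP90 co-chaperones had a median of 0.10 over 20 genes, with 1 at least 1.5-fold higher and 0 lower. The highest was Stip1, which links HSP70 to HSP90, at 46.2 and 70.1 CPM (log2 ratio 0.60, 0.52 to 0.68), and the lowest Cdc37l1 at 33.8 and 24.6 CPM (-0.46). The glucocorticoid-responsive co-chaperone Fkbp5, named outside the rule for naming genes, was at 49.0 and 47.5 CPM (-0.05, -0.13 to 0.04). The cytosolic chaperonin TRiC, which folds actin and tubulin, and its delivery partner prefoldin had a median of 0.39 over 14 genes. When the list was divided after its values had been seen, all 8 TRiC subunits were above 0 (median 0.44, Cct4 0.37 to Cct5 0.66), and 2 of 6 prefoldin subunits were (median -0.05, Pfdn5 -0.16 to Pfdn6 0.32).

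Chaperones and proteases of mitochondria other than Hspd1 and Hspe1 had a median of 0.08 over 10 genes, from Hscb at -0.57 (30.8 and 20.7 CPM) to Trap1, the mitochondrial HSP90, at 0.37 (33.7 and 43.6 CPM). None of them was 1.5-fold apart. Of the small heat shock proteins 3 of 10 reached the level, with Hspb3 at 48.2 and 12.9 CPM (log2 ratio -1.90, -2.02 to -1.79) and Hspb1 at 61.8 and 73.7 CPM (0.25, 0.18 to 0.33).

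Hsf1 itself was at 36.7 and 39.1 CPM (log2 ratio 0.09, -0.01 to 0.19), and Hsbp1, a binding partner of HSF1, at 178 and 181 CPM (0.02). Hsf2, another heat shock factor, named after its values were seen, was at 12.6 and 9.87 CPM (-0.35, -0.53 to -0.17). The list of heat shock factors, which includes Hsbp1, had a median of 0.02 over 3 genes, and this median is the value of Hsbp1. Other known HSF1-inducible genes, a list that shares members with the lists above, had a median of 0.17 over 14 genes, 9 above and 5 below 0, with 1 at least 1.5-fold higher (Stip1) and 1 lower (Dnajb4).

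ER chaperones, which fold secreted and membrane proteins, had the highest median of the 9 lists. It was 0.69 over 16 genes, of which 12 were at least 1.5-fold higher in the corticosterone library and 0 lower, and 14 were above 0. They ran from Dnajb9 at -0.54 (193 and 133 CPM) to Sdf2l1 at 1.71 (117 and 384 CPM). Hsp90b1, the HSP90 of the ER, was at 987 and 1792 CPM, a log2 ratio of 0.86 (0.84 to 0.88). The immediate early and dissociation genes had a median of -0.26 over 22 genes, 7 above and 15 below 0, from Klf2 at -1.58 to Ier3 at 0.66. Of the 22, 5 were at least 1.5-fold lower and 1, Ier3, was at least 1.5-fold higher, so the list was mixed, and its part in the lower Dnajb1 was not tested.

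**Figure D5:**
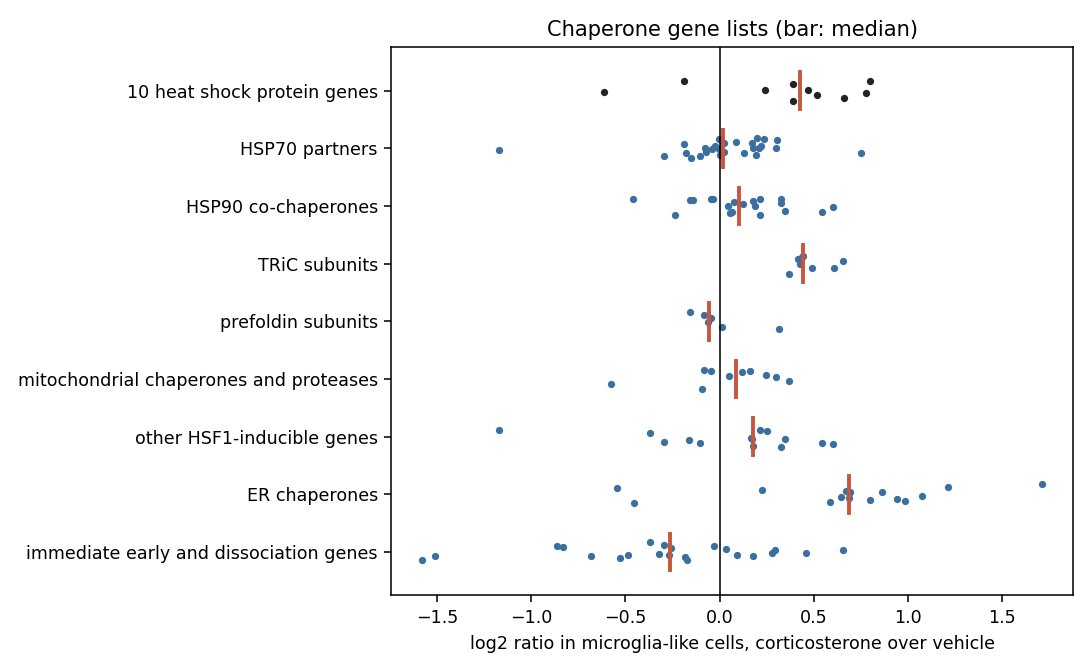
Log2 ratio of corticosterone over vehicle in microglia-like cells (x axis) for the 10 heat shock protein genes (black) and for genes of 8 sets with a mean of at least 5 CPM (blue); each point is 1 gene, red bars are medians and vertical scatter is only for legibility. TRiC and prefoldin are drawn apart. The lists of small heat shock proteins and of heat shock factors (Hsbp1 included), with 3 genes each, are left out. ER chaperones have a median of 0.69 and immediate early genes one of -0.26.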

How the data were processed

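Per the file headers and values, the deposited values are whole-number UMI counts for every gene in every barcode, which the authors had not normalised. Per the labels' protocols, libraries were built with Singleron GEXSCOPE kits and sequenced on an Illumina NovaSeq instrument. Per the submitters' processing notes, bcl2fastq 2.19 was used and the genome build was GRCm38. The aligner, counting program, annotation and cell-calling rule were not given in the sources used here.

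The cell filter asked for a minimum of 500 UMIs and 300 genes and a mitochondrial share no higher than 20%, which kept most barcodes (10500 of 10555 barcodes with vehicle and 17883 of 18113 with corticosterone, 49325067 and 85103539 UMIs). Of the features, 52 repeated a symbol. Counts scaled to 10000 per cell were clustered (2000 variable genes, 30 components, 15 neighbours, Leiden resolution 0.5, leidenalg 0.10.2), with the 10 genes and 8 chaperone lists left out. Clusters were named from at least 3 of a class's markers, or from the level of microglia markers, and the shallow one was left unnamed. A doublet score was computed and no cell was removed for it.

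Levels are UMIs summed over a class per 1e6 UMIs, with exact Poisson intervals. Ratios have conditional binomial intervals and shares have Clopper-Pearson intervals, all at 95% and for counting error only. No p-value was computed with 1 library per group. The interval script was tested on simulated counts. The 10 genes and all lists were chosen with earlier results of these data known. The naming rule took every one of the 10 genes, the highest and lowest gene with a mean of at least 20 CPM in each list, and the 6 best-correlated genes for each sum. Alternatives changed the scaling (edgeR 4.0.16 TMM, DESeq2 1.42.0 size factors), cell filters, clustering, doublets, depth, thinning and limits.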

Additional observations from a re-analysis of the deposited data

Results flagged for a closer look

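In neutrophil-like cluster 7 (222 vehicle and 121 corticosterone cells), 4 genes had log2 ratios, corticosterone over vehicle, of the opposite sign to microglia-like cells, with counting intervals that left out 0 in both. Hspa1a was at -1.736 (-3.21 to -0.45, from 21 and 7 UMIs) against 0.24. Hsp90ab1 was at -0.2509 (-0.45 to -0.05) against 0.52, and Hspe1 at -0.7361 (-1.45 to -0.04) against 0.39. Hsph1 was at -2.026 (-4.51 to -0.11) against 0.77 and rests on 11 and 3 UMIs. The differences were not tested, since each group has 1 library. Microglia marker RNA in cluster 7 stood at 0.335 of the microglia-like level with vehicle and 0.141 with corticosterone, and median depth was 2923.5 and 7534 UMIs. The part of either in the opposite signs was not tested.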

How the results depend on the processing

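Over 14 alternatives no log2 ratio of the 10 genes in microglia-like cells changed sign: Hspa8 ran from 0.62 to 0.81, Hsp90ab1 from 0.47 to 0.63, Dnajb1 from -0.64 to -0.50, Hsp90aa1 from -0.21 to -0.08 and Hspa1a from 0.18 to 0.44. The widest ranges were those of Hsph1, from 0.27 in cluster 2 alone to 0.89, and Hspa1b, from 0.52 without cluster 6 to 1.13 in cluster 2 alone. Counts at the 1.5-fold limit did change. The number at least 1.5-fold higher, 1 as reported, was 2 with TMM and 2 with DESeq2 scaling, 3 with no minimum level and 5 at a ratio of 5 to 4. The number at least 1.5-fold lower, also 1, was 0 with TMM, with DESeq2 scaling, without mitochondrial and ribosomal protein UMIs, with the mean of per-cell CPM, and, chosen after seeing the data, in cluster 2 alone. Apart from the ratio of 5 to 4, with 14.7% of all genes higher, these changed counts have no share of all genes beside them. Both scalings shift all genes by 0.1034 (TMM) and 0.1118 (DESeq2). The median of TRiC and prefoldin became 0.4949 and 0.5033, and that of the heat shock factor list, Hsbp1 included, 0.1197 and 0.1281. Without thinning, the median correlation of pairs with corticosterone was 0.03238, and the share of cells with an Hsp90aa1 UMI was 6.107 percentage points higher with corticosterone, where the difference of thinned shares was -2.13 points; corticosterone cells were deeper. Leaving out cluster 6, and adding the shallow cluster, were also chosen after seeing the data and changed no direction. No paired analysis was possible because each group has 1 library, and no library could be left out. Depth limits Hspa1b, at 122 and 458 UMIs, and Hsph1, at 430 and 1589, in microglia-like cells.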
